A study of Mus musculus with 2 samples.

Results

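Annexins, S100 proteins and galectin-1 were followed here across 7 cell populations of the mouse peritoneal cavity. The set holds 10 of the 28692 genes in the files: Anxa1, Anxa2, Anxa4, Anxa5, Anxa6, S100a4, S100a6, S100a10, S100a11 and Lgals1, each matched by its symbol. They were selected on measured values, with their levels in these cells already known, so the levels and genotype ratios below are descriptions and carry no test. The cells came from germ-free male C57BL/6 mice aged 10 weeks, either wild type (WT) or Xbp1dIEC, the name of mice that lack Xbp1 in the intestinal epithelium. Xbp1 encodes a factor that switches on genes of protein folding under endoplasmic reticulum stress; the profiled cells are outside the deleted tissue, and the driver of the deletion is not given in the sources used here. Each genotype gave 1 droplet library (10x Chromium, 3′ chemistry), in which cells of 4 mice were pooled, so no value has a replicate check and no p-value can be computed. The study asks how stress of the gut epithelium reaches immune cells, and the comparison here is Xbp1dIEC over WT within each population.

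Annexins are proteins that bind acidic phospholipids of membranes when calcium rises, and they link membranes to the cytoskeleton and to each other. S100 proteins are small calcium sensors with EF-hand motifs that bind and alter partner proteins, among them annexins: S100a10 forms a complex with Anxa2, and S100a11 binds Anxa1. Galectin-1, the product of Lgals1, is a secreted lectin that binds galactose-containing sugars on surface glycoproteins such as CD45 and CD43. In leukocytes these genes are known as markers of activated, migratory or tissue-adapted states, and S100a4, S100a6, S100a10 and Lgals1 are often high in memory and effector lymphocytes.

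The files held 56229330 UMIs (unique molecular identifiers, counted RNA molecules) over 6204 barcodes in WT and 49703442 over 6246 in Xbp1dIEC, and 58 barcode sequences occurred in both libraries. Populations were gated by UMIs of marker genes, none of which is a member. Of the cells kept, 4258 of 6055 in WT and 4697 of 6117 in Xbp1dIEC fell in a population. The gates, set at fixed UMI numbers, left out 814 WT and 520 Xbp1dIEC barcodes with 3 or more UMIs of both the B cell and the myeloid list, whose medians were 10602 and 11265 UMIs. In 516 and 293 of them the myeloid UMIs were 20% or less of the B cell UMIs, and in the rest the myeloid share was larger. Gates whose cap on other lineages scales with the cell's own lineage genes (proportional gates) are therefore given beside the B cell and Folr2/Retnla macrophage results. They were chosen after the data were seen, and they also added fixed cutoffs. Folr2/Retnla macrophages there needed 10 or more UMIs of their list and 1 or more of Folr2. B-2 cells needed 1 or more Fcer2a UMIs, and B-1 cells with an Fcer2a UMI were left out. The T and NK gates also held cells rich in class II and Cd209a UMIs. In T cells, 6 of 166 in WT and 12 of 132 in Xbp1dIEC had more than 10 UMIs of the class II genes H2-Aa, H2-Ab1 and H2-Eb1; in NK cells it was 9 of 29 and 4 of 34. T and NK values include these cells unless stated, and values without cells that had more than 10 class II UMIs or any Cd209a UMI are given for the results that rest on these gates. Macrophage RNA was present in lymphocytes: Fn1, Prg4, Alox15 and Lyz2 stood there at 0.998% to 3.92% of their level in large macrophages of the same library. Levels are CPM, a gene's UMIs per 1000000 UMIs of a population, with 95% exact Poisson intervals; log2 ratios have 1 CPM added and exact conditional binomial intervals. All intervals cover counting error only, not the spread between mice.

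Of the 10 members, 5 lie on chromosome 3 of GRCm38 (mm10), and 4 of these are the S100 genes. S100a4 (3:90603771-90606045, plus strand) and S100a6 (3:90612882-90624181, plus strand) are close neighbours, 6836 bases apart with S100a5 between them; S100a11 (3:93520488-93526287) and S100a10 (3:93555080-93564643) lie further along on the same strand. The upstream sequences of 3 of them are shown because these S100 genes had unlike ratios in B cells. S100a4 was higher in Xbp1dIEC and S100a11 lower. S100a6 was close to equal in B-1 cells but higher in B-2 cells, at a log2 ratio of 0.49. The sequences are from RefSeq promoters on GRCm38.p6, 5′ to 3′ on the plus strand, and end before the annotated gene. Of the 10 members, 7 had an entry there. Capitals mark matches on either strand to 4 motifs. The TATA box was searched as TATAAA and the AP-1 motif as TGANTCA. The GC box was searched as GGGCGG, and the KLF box, which can overlap it, as CCNCNCCC.
S100a4, chr3:90603520-90603769: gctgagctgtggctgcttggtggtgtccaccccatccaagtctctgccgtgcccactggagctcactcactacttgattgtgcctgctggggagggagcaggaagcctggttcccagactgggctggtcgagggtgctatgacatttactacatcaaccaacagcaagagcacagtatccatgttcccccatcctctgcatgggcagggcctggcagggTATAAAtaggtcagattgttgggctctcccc
S100a6, chr3:90612644-90612881: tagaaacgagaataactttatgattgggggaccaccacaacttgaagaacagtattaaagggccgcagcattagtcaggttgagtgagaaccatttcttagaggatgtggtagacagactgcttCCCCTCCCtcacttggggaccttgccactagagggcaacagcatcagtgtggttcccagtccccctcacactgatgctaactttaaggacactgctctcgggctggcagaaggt
S100a11, chr3:93520246-93520487: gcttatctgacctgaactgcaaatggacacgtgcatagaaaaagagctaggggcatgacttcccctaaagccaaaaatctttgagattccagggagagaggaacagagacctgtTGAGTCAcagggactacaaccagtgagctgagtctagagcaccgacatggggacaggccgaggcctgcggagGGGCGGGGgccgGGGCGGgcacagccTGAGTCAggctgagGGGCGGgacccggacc
The S100a4 stretch held a TATA box match 31 bases before the RefSeq start, and none of the other 3 motifs. S100a6 held a KLF box match 126 bases before its start. S100a11 held 2 AP-1 matches and 3 GC box matches, 1 of which overlaps a KLF box match. Among all 32851 promoters of 250 bases, 12.4% held the TATA box letters, 6.75% those of AP-1, 32.7% those of the GC box and 45.9% those of the KLF box. A match describes the letters and is not evidence of binding.

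Each member had its own order of levels over the populations. Anxa2, which joins S100a10 at membranes and takes part in plasmin formation at the cell surface, was highest in NK cells, at 1005 CPM in WT and 1021 in Xbp1dIEC. Cd209a cells followed at 602 and 385 CPM, and Folr2/Retnla macrophages at 410 and 267. Large macrophages (243 and 149) and B-1 cells (227 and 136) had overlapping intervals in each library, and B-2 cells were low at 59.5 and 46.0. In T cells Anxa2 was at 31.3 and 87.9 CPM, and at 17.2 and 22.8 without the class II cells, the lowest level of any population in each library.

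Anxa1, the glucocorticoid-induced ligand of formyl peptide receptors, separated myeloid and NK cells from B and T cells. It was at 311 CPM in WT and 389 in Xbp1dIEC NK cells, or 405 and 440 without the class II cells. It was at 205 and 148 in Folr2/Retnla macrophages, 203 and 134 in Cd209a cells, and 179 and 139 in large macrophages. The intervals of these 3 overlapped between neighbours in the order in each library. T cells had 25.1 and 16.1 CPM from 16 and 9 UMIs, or 6.89 and 9.12 from 4 UMIs in each library without the class II cells. B-2 cells had 24.8 and 19.7 CPM and B-1 cells 15.9 and 7.36. The B-1 level was 8.92% and 5.30% of that in large macrophages, above the 1.27% to 2.65% and 0.998% to 1.74% of the 4 macrophage genes in the same cells.

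Anxa5, known for binding phosphatidylserine on dying cells, was highest in Cd209a cells, at 250 and 229 CPM, and Folr2/Retnla macrophages had 151 and 145. Large macrophages had 51.1 and 39.4 CPM, so the macrophage populations differed in this gene by a log2 ratio of 1.54 in WT and 1.85 in Xbp1dIEC. Anxa4, a membrane-binding annexin, was a myeloid gene here, at 52.9 and 44.7 CPM in large and 60.3 and 47.6 in Folr2/Retnla macrophages against 15.9 CPM or less in B and T cells. Anxa6, the longest annexin, ran the other way: it had 62.2 CPM or less in Folr2/Retnla macrophages and Cd209a cells, and 139 and 93.2 CPM in T cells and 218 and 221 in NK cells, or 141 and 95.8 and 304 and 219.8 without the class II cells. In large macrophages it was at 71.7 and 65.1 CPM, between these.

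S100a6, also called calcyclin, had its highest level in B-1 cells. They had 4299 CPM in WT and 4246 in Xbp1dIEC, B-2 cells 1698 and 2391, and T cells 276 and 455, the lowest level in each library. Without the class II cells T cells had 220.5 and 315 CPM, and NK cells 766 and 929. With each cell thinned to 1000 UMIs, 93.2% of WT and 94.6% of Xbp1dIEC B-1 cells held an S100a6 UMI, against 10.2% and 15.9% of T cells (98.0% and 99.4% against 23.5% and 27.3% unthinned). Without the class II cells the T cell shares were 8.81% and 10.9% thinned, and 21.4% and 19.3% unthinned. Myeloid cells were between these, at 567 and 487 CPM in large macrophages, 1167 and 938 in Folr2/Retnla macrophages and 1577 and 1851 in Cd209a cells.

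S100a4, which binds non-muscle myosin and is tied to cell motility, was highest in Folr2/Retnla macrophages (792 and 733 CPM) and Cd209a cells (775 and 958). In large macrophages it was at 394 and 359 CPM. Among lymphocytes the level depended on the library, with 267 and 423 CPM in B-1 cells and 104 and 232 in B-2 cells. T cells had 97.1 and 283 CPM, or 70.6 and 110 without the class II cells. In WT NK cells the class II cells carried most of its UMIs, since the level was 568 CPM with them and 86.7 without, and in Xbp1dIEC it was 328 and 220.

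S100a10, the partner of Anxa2, varied least of all members between populations when all cells of the gates were counted. Its highest level was 2.00 times the lowest in WT and 2.91 times in Xbp1dIEC, from 572 CPM in WT T cells to 1760 in Xbp1dIEC NK cells. Without the class II cells T cells had 580.5 and 689 CPM and NK cells 1966 and 2009. S100a11 was at 1216 and 1036 CPM in NK cells and 892 and 800 in Cd209a cells. Without the class II cells NK cells had 896 and 729 CPM, with intervals that overlapped those of Cd209a cells in each library. It was lowest in large macrophages (222 and 150). Lgals1 was highest in NK cells, at 1586 and 1859 CPM, and at 2733 and 2238 without the class II cells. B-1 cells came next at 653 and 600 CPM, while B-2 cells had 218 and 258 and large macrophages 260 and 168.

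**Figure D1:**
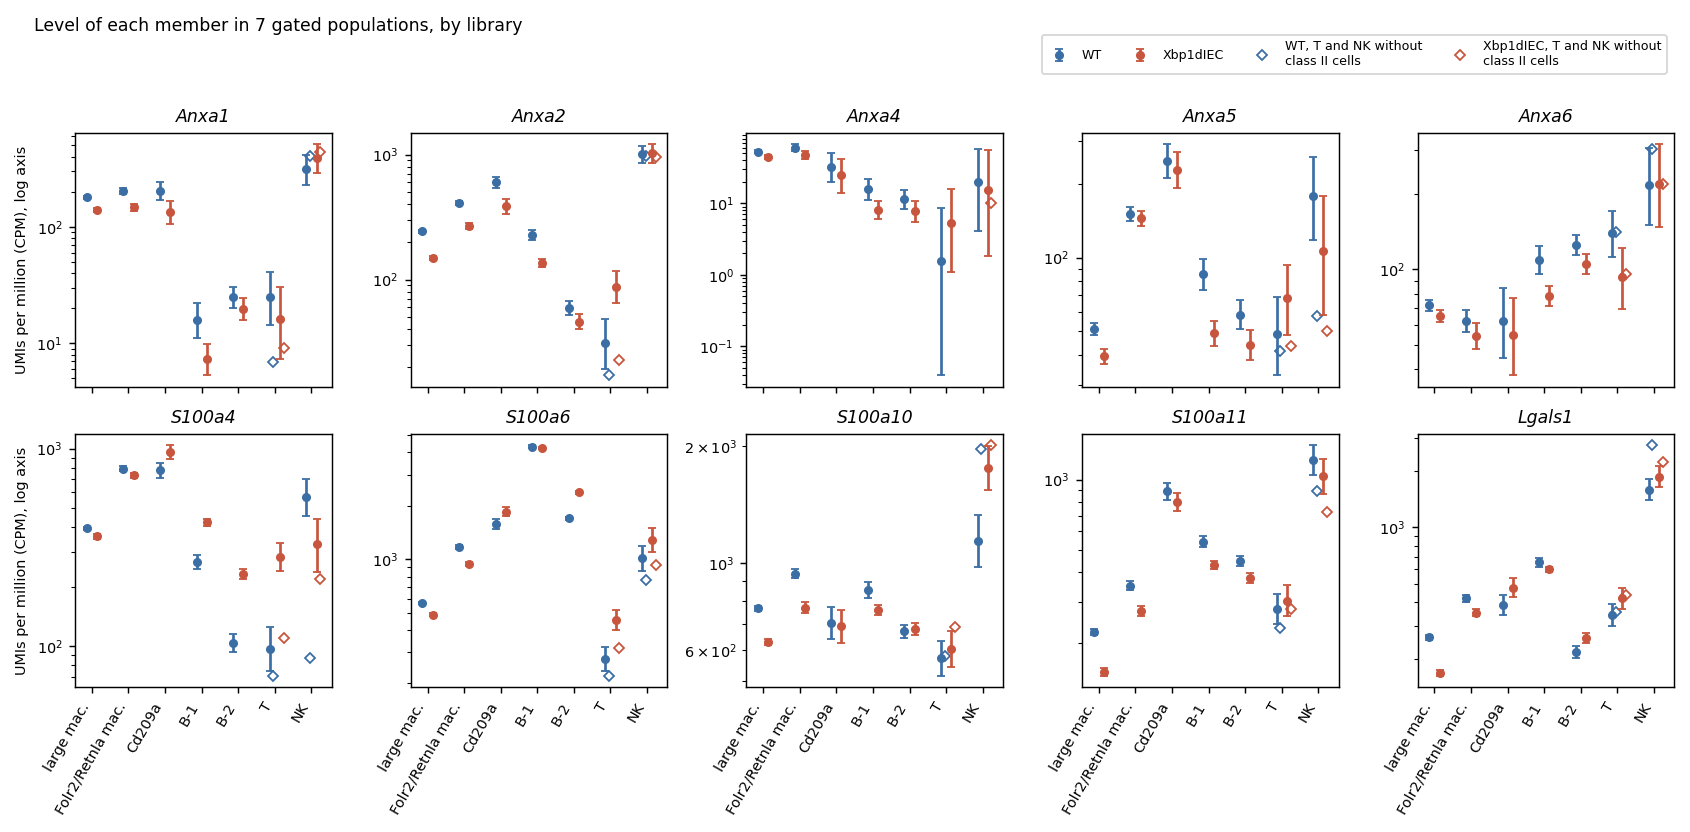
Level of each member (CPM, log axis, own scale per panel) in 7 populations; filled points are the WT and Xbp1dIEC libraries with 95% Poisson intervals, and open diamonds are T and NK cells without class II or Cd209a cells (a diamond with 0 UMIs is not drawn). S100a6 stands highest in B-1 cells at 4299 and 4246 CPM, and Anxa2 and Lgals1 in NK cells.

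Pairs of related populations were compared by the members at or past 2-fold in both libraries, with a filter of at least 30 UMIs over the pair and 20 CPM in the higher population of each library. In B-1 over B-2 cells, Anxa2 and Lgals1 were higher among the 8 members past the filter, where 0.86% of all genes were higher. Anxa2 was higher by a log2 ratio of 1.91 in WT and 1.55 in Xbp1dIEC, and Lgals1 by 1.58 and 1.21. S100a6 was higher by 1.34 and 0.83, past 2-fold in WT but not in Xbp1dIEC. In Folr2/Retnla over large macrophages, Anxa5 and S100a4 were higher among 10 members, beside 1.29% of genes; S100a4 was close to the threshold, at 1.00 and 1.03. With proportional gates, S100a6 and Lgals1 joined them, which made 4 beside 1.78% of genes.

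In Cd209a cells over large macrophages, Anxa2, Anxa5, S100a6 and S100a11 were higher, 4 of 10 members beside 7.68% of genes. Anxa5 differed most, by 2.27 and 2.51 on the log2 scale. In NK over T cells, 5 of 9 members were higher (Anxa1, Anxa2, S100a6, S100a11 and Lgals1) beside 4.88% of genes, and 7 of 8 without the class II cells, when Anxa6 and S100a10 joined them, beside 6.7% of genes. No member past the filter was 2-fold or more lower in both libraries in any of these 4 pairs. Few genes were: 53 of 4186, 36 of 4355, 311 of 4573 and 78 of 2193, in the order of the pairs above.

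Large macrophages, the resident cells marked by Gata6 and Timd4, had lower levels of all 10 members in Xbp1dIEC, over 2384 WT and 2381 Xbp1dIEC cells. Anxa2 stood at 243 CPM in WT and 149 in Xbp1dIEC, a log2 ratio of -0.70 (95% interval -0.77 to -0.64). Lgals1 stood at 260 and 168 CPM, a log2 ratio of -0.63 (-0.69 to -0.57), and S100a11 at 222 and 150, a ratio of -0.57 (-0.64 to -0.50). These were the only members past a log2 ratio of -0.5. Anxa5 was at -0.37, Anxa1 at -0.36, S100a10 at -0.29, Anxa4 at -0.24 and S100a6 at -0.22, and S100a4 and Anxa6 at -0.14 each. The whole interval, which covers counting error only, lay below 0 for each of the 10. The share of all genes with such an interval is not given here, so this count has no background.

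The median over the members was -0.33 on the log2 scale, beside -0.09 over the 4379 genes past the filter. Most of these genes were thus lower too. Their quartiles were -0.22 and 0.05, and S100a4 and Anxa6 lay between the quartiles. Anxa2 and Lgals1 were 1.5-fold or more lower and no member was as much higher, where 1.6% of genes were lower and 0.228% higher by that fold. With cells thinned to 1000 UMIs, 20.1% of WT and 13.6% of Xbp1dIEC large macrophages held an Anxa2 UMI, against 1.81% and 4.55% of T cells, or 1.26% and 2.52% of T cells without class II cells. Unthinned, it was 76.8% and 55.5% of large macrophages, whose median depths were 9670.5 and 7827 UMIs, and 7.23% and 14.4% of T cells, at 3492.5 and 3543 UMIs. Depth moved with the genotype here: among cells with 4000 to 10000 UMIs, Anxa2 was at -0.55 and Lgals1 at -0.36. With stricter gates, which kept 673 and 990 of these cells, S100a4 turned to 0.04. Of 5 neutrophil genes, S100a9, Retnlg, Ngp and Ly6g had 0 UMIs in large macrophages and S100a8 stood at 16.8 and 14.3 CPM.

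Cycling cells were 10.3% of large macrophages in WT and 4.07% in Xbp1dIEC. In resting large macrophages (2138 and 2284 cells) all 10 members were lower, with a median of -0.33 and Anxa2 at -0.74. The median over 4379 genes in these resting cells was -0.08. In the 246 and 97 cycling cells the median over the members was -0.08, with 7 members lower and 3 higher. A median over all genes in cycling cells is not given here. Anxa2 was at 226 and 190 CPM there (-0.25, -0.48 to -0.03), Lgals1 at 291 and 233 (-0.32, -0.52 to -0.12) and S100a11 at 248 and 195 (-0.34, -0.57 to -0.13). S100a10 was at 920 and 900 CPM in cycling and 742 and 611 in resting cells. The difference between cycling and resting cells in these ratios was not tested.

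Folr2/Retnla macrophages (577 WT and 677 Xbp1dIEC cells) also had all 10 members lower in Xbp1dIEC, 8 with the whole interval below 0. That count too has no share of all genes beside it. The median over the members was -0.30, beside -0.07 over 4635 genes, whose quartiles were -0.22 and 0.08. Anxa5, S100a4 and Anxa6 lay between these quartiles. Anxa2 was at 410 and 267 CPM (-0.62, -0.71 to -0.52), the only member 1.5-fold or more lower, where 1.9% of genes were lower and 0.431% higher. Anxa1 was at 205 and 148 CPM (-0.47), S100a11 at 351 and 273 (-0.36), S100a6 at 1167 and 938 (-0.32) and S100a10 at 941 and 771 (-0.29). S100a4 and Anxa5 were near equal, at -0.11 and -0.06. With proportional gates (235 cells in each library) Anxa2 stayed at -0.61 and S100a6 was at -0.53, while Anxa6 turned to 0.14 with an interval of -0.21 to 0.49. Cycling cells were 16.5% of this population in WT and 9.60% in Xbp1dIEC, the 12 cell cycle genes summed to 494 and 264 CPM, and the median depths were 9962 and 7596 UMIs. Their part in the result was not tested.

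Cd209a cells split the set. Many of them carried class II genes, as dendritic cells and some monocyte-derived cells do. Class II UMIs were above the cutoff used for T and NK cells in 60 of 83 WT and 70 of 79 Xbp1dIEC cells. The part of this difference in the ratios below was not tested. In these 83 WT and 79 Xbp1dIEC cells, Anxa2 was at 602 CPM in WT and 385 in Xbp1dIEC (-0.64, -0.89 to -0.41) and Anxa1 at 203 and 134 (-0.59, -1.01 to -0.19). Both were 1.5-fold or more lower, where 11.1% of genes were lower and 5.55% higher by that fold. S100a4 was higher at 775 and 958 CPM (0.31, 0.13 to 0.48), Lgals1 at 388 and 478 (0.30, 0.05 to 0.55) and S100a6 at 1577 and 1851 (0.23, 0.11 to 0.36). The intervals of the other 5 members held 0. Macrophage genes moved with the genotype in these cells: the 5 genes of the myeloid list summed to 3877 CPM in WT and 2069 in Xbp1dIEC, and the 4 of the large macrophage list to 338 and 213. Fn1, Prg4, Alox15 and Lyz2 summed to 22525 and 14957 CPM. Their part in the result was not tested.

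**Figure D2:**
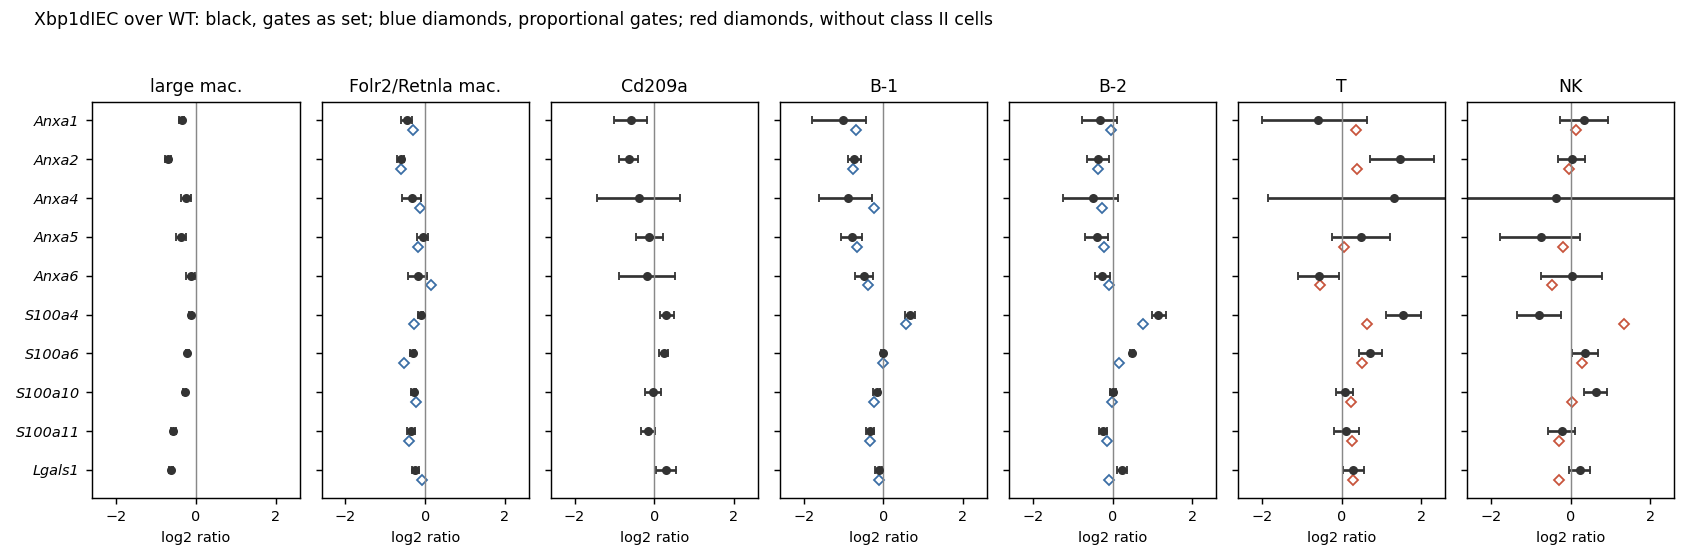
Log2 ratio of Xbp1dIEC over WT for each member in each population, with 95% counting intervals in black (wider ones run off the axis), proportional gates as blue diamonds and T and NK cells without class II cells as red diamonds (drawn at 3 or more UMIs over both libraries). The black points of all 10 members lie left of 0 in both macrophage populations, while the Anxa6 diamond of Folr2/Retnla macrophages lies right of 0. S100a4 lies right of 0 in B-1 and B-2 cells.

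B-1 cells, the innate-like B cells of the body cavities, had S100a4 higher and the annexins lower in Xbp1dIEC. There were 295 WT and 648 Xbp1dIEC cells with median depths of 6805 and 8018 UMIs. S100a4 was at 267 CPM in WT and 423 in Xbp1dIEC (0.66, 0.53 to 0.79), the only member higher. Anxa2 was at 227 and 136 CPM (-0.73, -0.90 to -0.57) and Anxa5 at 85.7 and 49.0 (-0.79, -1.08 to -0.53). Anxa1 (-1.02) and Anxa4 (-0.88) were lower from low levels, at 15.9 CPM each in WT, and did not pass the filter.

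S100a6, whose level was highest in B-1 cells, was at a log2 ratio of -0.02 (-0.05 to 0.02), and it turned to 0.03 when mitochondrial, ribosomal and immunoglobulin genes were left out of the total. Of the 8 members past the filter, 2 were 1.5-fold or more lower (Anxa2 and Anxa5) and 1 higher (S100a4), beside 2.61% and 3.47% of genes. The median over all 10 members was -0.41, beside -0.01 over the 4323 genes past the filter. The sets are unlike, since the member median includes Anxa1 and Anxa4, the lowest ratios, which did not pass it. With proportional gates, which held 482 and 799 cells, S100a4 was at 0.57, short of 1.5-fold, Anxa2 at -0.76 and Anxa5 at -0.66. The median there, also over all 10 members, was -0.29. With cells thinned to 2400 UMIs and gated again, S100a4 was at 0.34 and Anxa2 at -0.35.

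B-1 cells were split by which of 2 lists summed higher in a cell, Ahnak2, Phgdh and Ass1 or Fbxw13, Prkar2b and Fgd2. The numbers of cells in these states differed by library, 162 WT and 218 Xbp1dIEC cells in the former, 87 and 337 in the latter. S100a4 was higher in the Fbxw13 state of each library, at 382 and 477 CPM against 206 and 340 in the Ahnak2 state. Within each state it was still higher in Xbp1dIEC, by 0.72 (0.52 to 0.94) in the Ahnak2 state and 0.32 (0.12 to 0.52) in the Fbxw13 state. Anxa2, at 260 and 174 CPM in the Ahnak2 and 171 and 109 in the Fbxw13 state, was lower within each, at -0.58 and -0.65. Lgals1 was at 778 and 802 CPM in the Ahnak2 state and 456 and 476 in the Fbxw13 state, near equal between libraries in each, beside -0.12 over all B-1 cells.

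In B-2 cells, the conventional B cells (724 WT and 746 Xbp1dIEC cells), S100a4 was at 104 CPM in WT and 232 in Xbp1dIEC, a log2 ratio of 1.15 (0.99 to 1.33). S100a6 was at 1698 and 2391 CPM (0.49, 0.45 to 0.54) and Lgals1 at 218 and 258 (0.24, 0.11 to 0.37). Anxa2, Anxa5, Anxa6 and S100a11 were lower, between -0.40 and -0.24, with intervals below 0, and S100a10 was at 670 and 679 CPM. S100a4 was the only one of 9 members past the filter to pass 1.5-fold, beside 1.53% of genes higher and 1.86% lower.

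Some B-1 genes moved with these values in the B-2 gate, where Zcwpw1 was at 12.8 and 26.2 CPM and Bhlhe41 at 16.4 and 26.9, while the B-2 gene Fcer2a was at 176 and 121. The whole B-1 list of 8 genes moved less, from 123 to 157 CPM, and the 4 genes of the B-2 list summed to 1204 and 942. Their part in the result was not tested. Proportional gates asked for an Fcer2a UMI in each B-2 cell, and Fcer2a was at 237 and 250 CPM there (571 and 375 cells). With these gates S100a4 was at 0.76 (0.59 to 0.94), S100a6 at 0.17 and Lgals1 at -0.10. Thinned to 2400 UMIs and gated again, S100a4 was at 0.53.

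T cells (166 and 132 cells) had S100a4 at 97.1 CPM in WT and 283 in Xbp1dIEC, Anxa2 at 31.3 and 87.9 and S100a6 at 276 and 455, log2 ratios of 1.53, 1.46 and 0.72. These 3 of the 8 members past the filter were 1.5-fold or more higher and none as much lower, beside 7.93% and 5.73% of genes. The class II cells moved with these values: H2-Ab1 was at 790 and 2548 CPM and Cd209a at 50.1 and 203 in the T gate. Without them (159 and 119 cells) S100a4 was at 70.6 and 110 CPM, a ratio of 0.63 (0.00 to 1.27) from 41 and 48 UMIs. Anxa2 was at 17.2 and 22.8 CPM, a ratio of 0.39 (-1.02 to 1.83) from 10 UMIs in each library. S100a6 was at 0.51 (0.16 to 0.87), S100a10 at 0.25 (0.02 to 0.48) and Lgals1 at 0.29, and Anxa6 was lower at -0.56 (-1.13 to -0.01). Only S100a4 then passed 1.5-fold, beside 5.35% of genes higher and 5.65% lower.

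T cells without Cd8 UMIs held most of the UMIs in that cleaned gate, with S100a4 at 93.1 and 126 CPM and S100a6 at 270 and 358. In T cells with a Cd8 UMI (34 WT and 19 Xbp1dIEC cells), S100a4 had 0 and 2 UMIs and Anxa2 3 and 0, so no fold is given. S100a10 was at 514 and 521 CPM there.

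NK cells were few, 29 in WT and 34 in Xbp1dIEC, or 20 and 30 without the class II cells. With all of them S100a4 (568 and 328 CPM) and Anxa5 (178 and 107) were 1.5-fold or more lower and S100a10 (1143 and 1760) higher, among 9 members past the filter and beside 10.9% of genes lower and 12.0% higher. H2-Ab1 stood at 8031 CPM in WT and 2797 in Xbp1dIEC NK cells, and at 43.4 and 29.98 without the class II cells. Without them, S100a4 turned to 1.33 (-0.01 to 2.93) from 6 and 22 UMIs, S100a10 was at 0.03 and Lgals1 at -0.29, and no member past the filter reached 1.5-fold, beside 7.64% of genes lower and 9.0% higher. Anxa5 was at 57.8 and 49.96 CPM there, from 4 and 5 UMIs. Anxa2 was at 983 and 959 CPM.

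**Figure D3:**
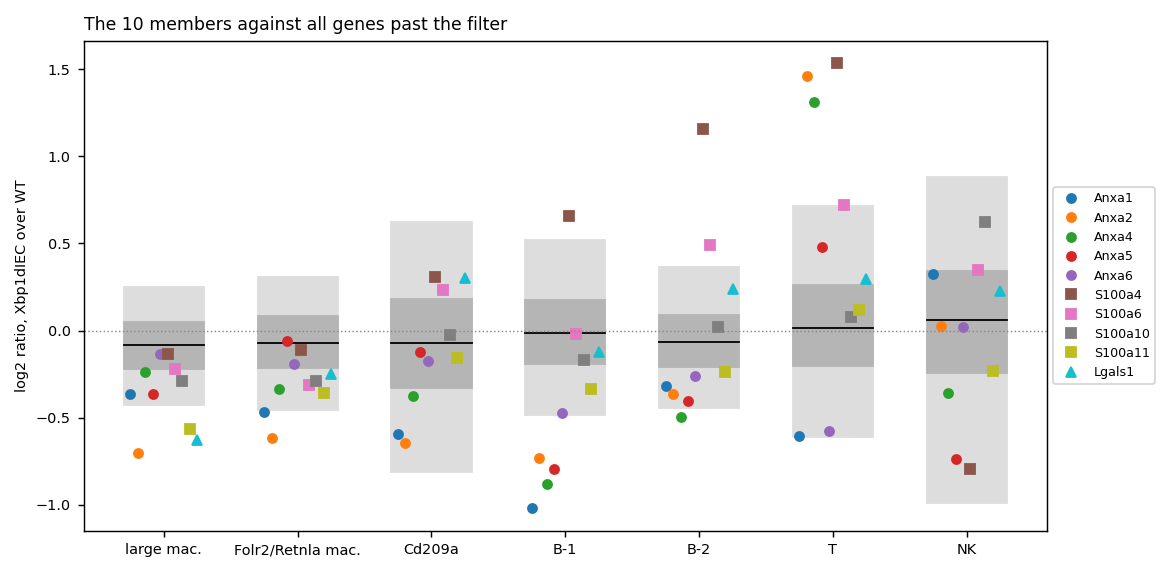
Log2 ratio of Xbp1dIEC over WT for the 10 members (circles annexins, squares S100 genes, triangle Lgals1) over the distribution of all genes past the filter in each population: black line median, dark box quartiles, light box 5th to 95th percentile. Anxa2, S100a11 and Lgals1 lie under the 5th percentile in large macrophages and S100a4 above the 95th in B-1, B-2 and T cells, the T value with class II cells included.

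**Figure D4:**
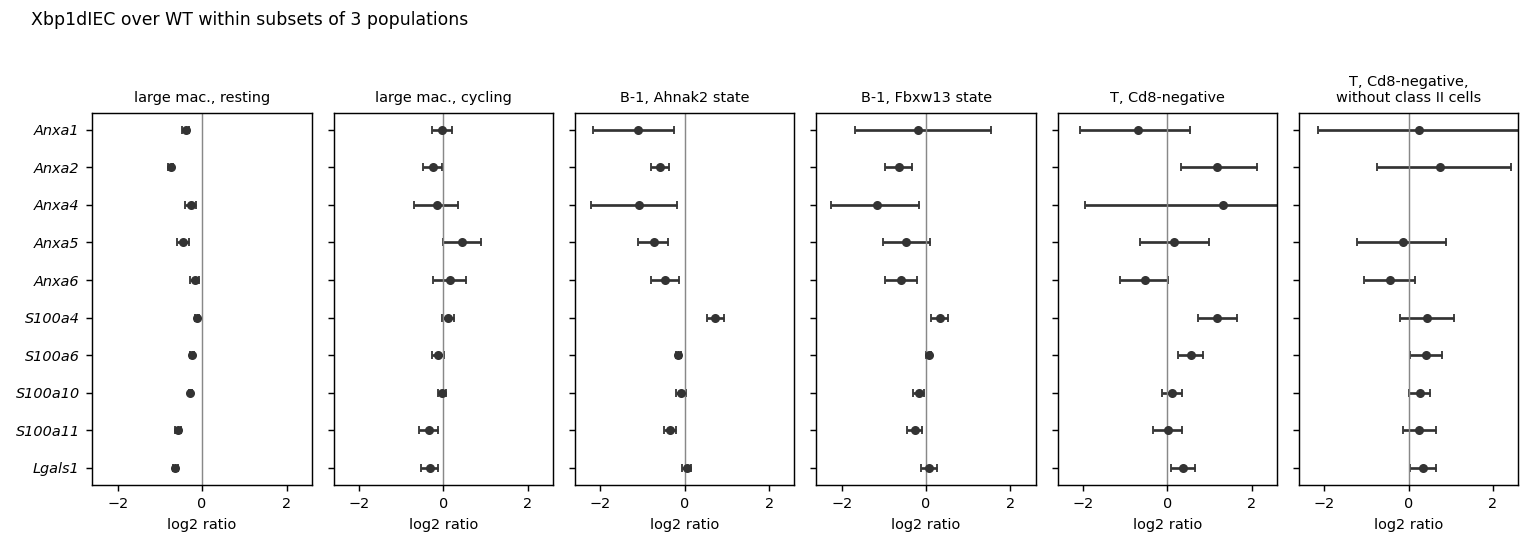
Log2 ratio of Xbp1dIEC over WT with 95% counting intervals within resting and cycling large macrophages, the B-1 states and Cd8-negative T cells with and without class II cells (members with 0 UMIs in a library are left out and wide intervals run off the axis). Anxa2 is at -0.74 in resting and -0.25 in cycling macrophages, and S100a4 is right of 0 in both B-1 states.

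Of 7 other annexins in the files, Anxa3, Anxa7 and Anxa11 reached 50 CPM in a population. Anxa3 was a myeloid gene, at 272 and 211 CPM in large macrophages (-0.36) and 96.2 and 28.2 in Cd209a cells (-1.73). Anxa11 was at 73.4 and 46.1 CPM in B-1 cells (-0.66). In large macrophages 3 of the 7 passed the filter, with a median of -0.23 and none past 1.5-fold.

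Of 13 other S100 genes, S100a1 and S100a13 reached 50 CPM, and both were near equal between libraries in macrophages. S100a13 was at 328 and 321 CPM and S100a1 at 315 and 308 in large macrophages, log2 ratios of -0.03 and -0.04. In Folr2/Retnla macrophages their ratios were -0.08 and -0.02. Of 8 other genes with Lgals symbols in the files, Lgals3, Lgals9 and Lgals3bp (a galectin-binding protein, not a galectin) reached it. All 3 were lower in large macrophages, with Lgals3 at 603 and 434 CPM (-0.47), Lgals9 at 91.4 and 67.4 (-0.43) and Lgals3bp at 139 and 104 (-0.42).

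Of 17 partners and receptors, 11 reached 50 CPM, and the formyl peptide receptors Fpr1 and Fpr2 were not among them. Vim, the intermediate filament of leukocytes, was the partner lower by 1.5-fold or more in both macrophage populations, at 529 and 328 CPM in large (-0.69) and 757 and 437 in Folr2/Retnla macrophages (-0.79). Ahnak, a large scaffold that binds the Anxa2 and S100a10 complex, was not lower there, at 450 and 513 CPM in large macrophages (0.19). In B-1 cells Ahnak2 was lower, at 112 and 65.5 CPM (-0.76), and Vim at 1644 and 1177 (-0.48). Ahnak2 also helped define the B-1 states, whose cell numbers differed by library, and their part in its ratio was not tested. Ptprc, the CD45 gene and a galectin-1 receptor, was near equal in large macrophages at 96.3 and 95.5 CPM.

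Likeness of levels was taken as Pearson's r of log2(CPM + 10) over the 14 values of 7 populations and 2 libraries, among 3876 genes at 50 CPM or more in at least 1 of them. It is a description, since values of a library share depth and pooled mice. Anxa2 was most like Diaph1 (0.93), Tuba1c and Capn2, and Anxa1 most like M6pr (0.98), Ilk and Tmem14c. S100a4 was most like Ptafr, Eps8 and Mpp6, and S100a6 most like Gm15987 (0.95), Hmgn3 and Otulin. Anxa4 was most like Adssl1, Gapdh and Cyba, Anxa5 most like Prelid1, Tkt and Batf3, and Anxa6 most like Thrap3, Impa1 and Arhgdib. S100a10 was most like Sra1, Atp5d and Asna1, and S100a11 most like BC035044, Arhgdia and Hcls1. Within the set, S100a10 and Lgals1 were the most alike pair (0.83), with Anxa1 and Anxa2 next (0.82), while S100a4 and S100a6, neighbours on the chromosome, had 0.20 and Anxa4 and Anxa6 -0.55.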

How the data were processed

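Droplet RNA sequencing gave 1 WT and 1 Xbp1dIEC library. The deposited values are counts, whole UMI numbers per gene and barcode, not normalized. Cell Ranger 2.2.0, the build mm10 and Seurat 2.3.0 are listed in the submitters' processing notes, with no gene annotation given in the sources used here. Cells needed at least 500 UMIs, at least 200 genes and a mitochondrial share below 10%, and scrublet in scanpy 1.11.5 (expected rate 5%) removed 144 WT and 109 Xbp1dIEC doublets.

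A cell was gated by UMIs of lineage lists: 3 or more of exactly 1 of the B, T, NK and myeloid lists and 2 or fewer of the others. Large macrophages had Gata6, Timd4, Icam2 and Ltbp1, Folr2/Retnla macrophages Folr2, Retnla and Cbr2, each list at 3 or more UMIs and above the other. Cd209a cells had 3 or more Cd209a UMIs. B-1 and B-2 cells had 2 or more UMIs of their own list, above the other. Cycling cells had 2 or more UMIs of 12 cell cycle genes. UMIs were summed per population and library. The filter for counted genes was 30 UMIs over both libraries and 20 CPM in the higher one, and the ratio code was tested on simulated data.

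The members and lists were chosen with earlier results of these data known. The named genes are the 10 members, family and partner genes at 50 CPM or more in a population, and the 3 genes most like each member (those for Lgals1 are not reported here); Fpr1 and Fpr2, below that level, and genes of the gates, the free RNA check and the class II check were named beside a result they bear on. The alternatives with proportional gates, a depth band of 4000 to 10000 UMIs and lymphocytes without class II cells were added after the data were seen.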

Additional observations from a re-analysis of the deposited data

Results flagged for a closer look

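Anxa2 and S100a4 had ratios of opposite direction in different populations. The log2 ratio of Xbp1dIEC over WT for Anxa2 was -0.70 in large macrophages, -0.62 in Folr2/Retnla macrophages, -0.64 in Cd209a cells and -0.73 in B-1 cells, against 1.46 in T cells. For S100a4 it was 0.66 in B-1 cells, 1.15 in B-2 cells and 1.53 in T cells, against -0.79 in NK cells. With 1 library per genotype these differences between populations were not tested. The T and NK values moved with the class II cells in those gates: without them Anxa2 was at 0.39 in T cells, and S100a4 at 0.63 in T cells and 1.33 in NK cells.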

How the results depend on the processing

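The median log2 ratio kept its direction in 11 of 11 settings for each population but NK cells (8 of 11), and the cause of the changes below was not tested. Some of these settings could not change a population. The class II exclusion did not touch macrophages or Cd209a cells, and proportional gates kept the same Cd209a cells. T cells held no cycling cells to leave out. Stricter gates gave -0.44 for the median in Folr2/Retnla macrophages. Members 1.5-fold or more lower or higher in Xbp1dIEC numbered as follows where they moved. In large macrophages 1 was lower with stricter gates, in cells with 4000 to 10000 UMIs, and with mitochondrial, ribosomal and immunoglobulin genes left out of the total. In Folr2/Retnla macrophages 4 were lower with stricter gates, and 0 when thinned, with that other total or in that depth band. In Cd209a cells 1 was lower without the doublet step, with looser gates or with 10 CPM added, 0 with the other total, and 1 was higher with stricter gates. In B-1 cells 1 was lower with stricter gates or thinned cells, 4 with the other total or no filter, and 0 were higher with stricter or proportional gates or thinned cells. In thinned B-2 cells 2 were lower and 0 higher. In T cells 1 was lower with the other total, the depth band or no filter, and 1 higher without class II cells. In NK cells 0 were lower with stricter gates, thinned cells, the depth band or no class II cells, and 0 were higher without cycling or class II cells, 2 in the depth band.

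Members 2-fold higher in B-1 over B-2 cells were 4 with stricter gates or thinned cells. In Folr2/Retnla over large macrophages they were 1 with a mitochondrial share under 5% or the other total, 4 with proportional gates, 5 in the depth band and 6 with stricter gates. Of the 70 ratios of a member in a population, 24 changed sign in at least 1 setting, 21 of them under 1.5-fold as reported. Those at or past 1.5-fold were S100a4 in NK cells (1.30 with stricter gates, 1.17 thinned, 1.33 without class II cells), Anxa1 in T cells (0.79 thinned, 0.36 without class II cells) and Anxa4 in T cells (-1.70 thinned, -2.33 in the depth band), both T cell genes from under 30 UMIs in all. No paired analysis was possible because each genotype has 1 library.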
